A study of Homo sapiens with 10 samples.

Results

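The zinc finger genes of chromosome 19 were taken as the protein-coding genes of that chromosome in GRCh38.p14 whose symbol is ZNF followed by digits and nothing else. The rule found 240 genes among the 1451 protein-coding genes of chromosome 19 and the 20033 of chromosomes 1 to 22, X and Y. The assay was ChIP-Rx, an immunoprecipitation of crosslinked chromatin that is sequenced together with added mouse chromatin, in U2OS cells, a human osteosarcoma line, whose own MYC gene had been knocked out. All cells carried a FLAG-tagged MYC that doxycycline switches on, so that an antibody to FLAG recovers the introduced protein only. The induced groups were mutant 3A, mutant 7A and wild-type (WT) MYC, each after 24 h of doxycycline at 1 µg/mL, with 2 immunoprecipitation libraries each. Uninduced WT cells gave 2 immunoprecipitation libraries, and induced and uninduced WT cells gave 1 input library each. The labels do not say which residues 3A and 7A change, which promoter drives the transgene, or whether the knockout line is a single clone. Each induced protein has 1 list of peaks, so there is no spread between replicates and no test between proteins. The lists hold 845 peaks for 3A, 64 for 7A and 4749 for WT, of which 31, 3 and 224 lie on chromosome 19. A gene was called bound where the summit of a peak lay within 1 kb of either end of its span. The intervals given are 95% intervals for counting error, and neighbouring genes arose from shared ancestors and share territory, so they are too narrow for related genes: they are computed as if genes were independent.

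C2H2 zinc finger proteins bind DNA through repeated finger modules, and chromosome 19 carries the densest collection of their genes in the human genome. Many of them also carry a KRAB domain, which recruits the corepressor TRIM28 and, through it, the histone methyltransferase SETDB1 and HP1 proteins, and a large part of the family silences transposable elements. The genes lie in tandem clusters that grew by duplication, and near-identical copies can share sequencing reads. MYC pairs with MAX and prefers the E-box, CACGTG, in open and CpG-rich promoters.

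The mutants had no summit at any of these genes, and WT MYC had one at few of them. For 3A, 0 of 240 ZNF genes were bound, which allows a share of up to 1.25% by a limit of 3 counts, against 21 of the 1211 other protein-coding genes of chromosome 19 (1.73%, Wilson 95% interval 1.14 to 2.64%) and 3.50% of all protein-coding genes. For 7A, 0 of 240 ZNF genes and 0 of 1211 other genes of the chromosome were bound, where 0.125% of all protein-coding genes were. By this rule the Wilson interval for 3A at ZNF genes, 0 to 1.58%, overlaps that of the other genes, and for 7A both counts are 0. For WT, 15 of 240 ZNF genes were bound (6.25%, Wilson 95% interval 3.82 to 10.1%), against 154 of 1211 other genes of chromosome 19 (12.7%, 11 to 14.7%) and 16.7% of all protein-coding genes. The WT intervals of the ZNF genes and of the other chromosome 19 genes do not overlap by this rule. Under some alternatives given below they do overlap. The annotation places some of the 1211, such as KIR2DL2 and LILRA3, among the first genes of the chromosome, away from most KIR and LILR genes. Whether such positions belong to the main chromosome sequence was not checked. These entries were kept in the shares and distances of the other genes. KIR2DL2 and LILRA3 count as unbound, at 226939 and 68100 bp from a WT summit, which lowers the share of the other genes. Genes with the same kind of symbol on other chromosomes were bound by WT at 47 of 237 (19.8%, 15.3 to 25.4%, an interval that includes the 16.7% background). They were bound by 3A at 15 of 237 (6.33%, 3.87 to 10.2%), an interval above the 3.50% background. By listed starts their 3A interval, 2.81 to 9.18%, includes the background of 3.87%. Among the other zinc finger names of chromosome 19 (ZFP, ZSCAN, ZIM, ZIK, ZBTB and ZNF symbols with a letter after the digits), WT bound 1 of 24, ZBTB32 with a fold of 4.59, and the mutants bound none of the 24. ZBTB32 was called through a gene end alone, and by listed starts WT bound 0 of 19.

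The 225 ZNF genes that were not bound were mostly far from any peak. The median distance from a ZNF gene to the nearest WT summit was 274 kb (quartiles 79.1 to 585 kb), against 46.5 kb (11.4 to 150 kb) for the other genes of chromosome 19. Within 10 kb lay a WT summit for 9.58% of ZNF genes and for 23.9% of the other genes, and within 100 kb for 30% of ZNF genes and 65.2% of the others. For 3A the median was 2015 kb for ZNF genes and 485 kb for the other genes, and for 7A it was 9912 kb for ZNF genes and 6177 kb for the other genes. The closest 3A summit to any ZNF gene lay 38684 bp from ZNF473. This peak had no WT counterpart. Its authors' fold, 1.74, was the lowest of the 31 3A peaks of chromosome 19, and its −log10 q, 75.8, was the highest, so it was unlike the others.

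**Figure D1:**
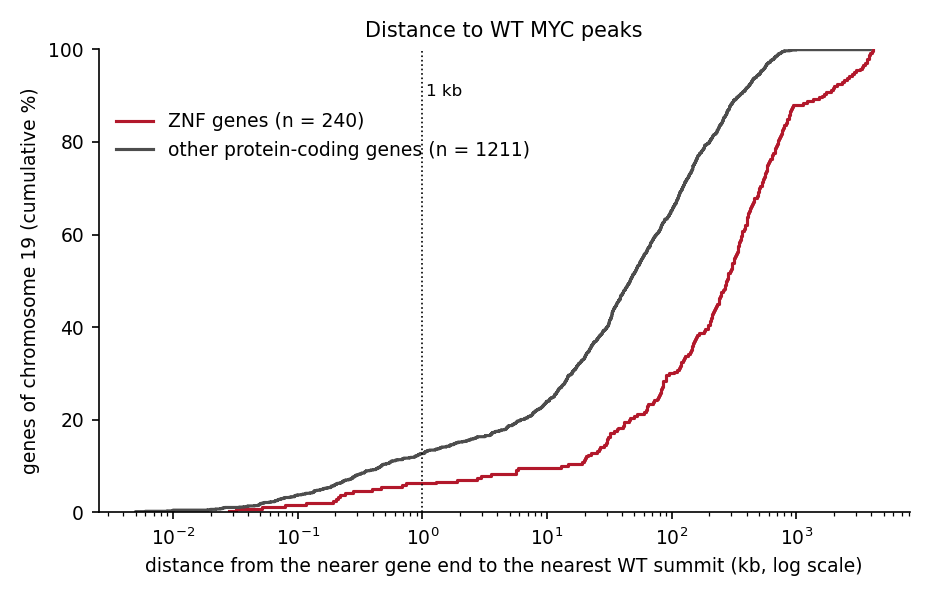
Cumulative share of genes (vertical axis, %) by the distance from the nearer gene end to the nearest WT MYC summit (horizontal axis, kb, log scale), for the 240 ZNF genes and the 1211 other protein-coding genes of chromosome 19. The dotted line marks 1 kb, where the ZNF curve stands at 6.25% and the other at 12.7%, and the curves lie furthest apart between 10 and 1000 kb.

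The start sequences of the strongest bound genes are shown for their base composition and for E-boxes near the start. The RefSeq promoter table for GRCh38.p14 lists starts for 210 of the 240 genes, 261 starts in all. The windows below run 5′ to 3′ on the strand of the gene, with 250 bases before the start and 50 from the start on, for the 6 genes with the highest WT fold among those with a summit at the 5′ end. Capitals mark CACGTG, the E-box, or CACGCG on either strand, a related hexamer.
ZNF507 (chr19:32345360-32345659, plus strand): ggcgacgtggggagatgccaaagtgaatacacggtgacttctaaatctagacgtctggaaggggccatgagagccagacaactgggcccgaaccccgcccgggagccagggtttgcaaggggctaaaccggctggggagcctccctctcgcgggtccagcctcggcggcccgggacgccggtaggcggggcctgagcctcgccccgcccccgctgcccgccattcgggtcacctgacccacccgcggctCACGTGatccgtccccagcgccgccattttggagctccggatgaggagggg
ZNF628 (chr19:55476367-55476666, plus strand): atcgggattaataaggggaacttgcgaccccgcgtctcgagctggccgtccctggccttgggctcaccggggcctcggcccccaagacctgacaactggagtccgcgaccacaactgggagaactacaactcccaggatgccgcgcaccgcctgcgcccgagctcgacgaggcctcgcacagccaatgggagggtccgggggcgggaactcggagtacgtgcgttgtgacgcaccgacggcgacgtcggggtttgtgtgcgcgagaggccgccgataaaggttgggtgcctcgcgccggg
ZNF667 (chr19:56477296-56477595, minus strand): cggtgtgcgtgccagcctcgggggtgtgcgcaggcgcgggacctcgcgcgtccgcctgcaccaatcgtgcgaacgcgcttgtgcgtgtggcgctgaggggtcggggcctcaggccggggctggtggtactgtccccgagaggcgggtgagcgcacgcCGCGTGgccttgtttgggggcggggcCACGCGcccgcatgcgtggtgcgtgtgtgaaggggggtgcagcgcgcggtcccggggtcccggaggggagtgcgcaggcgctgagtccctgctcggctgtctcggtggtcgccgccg
ZNF146 (chr19:36214856-36215155, plus strand): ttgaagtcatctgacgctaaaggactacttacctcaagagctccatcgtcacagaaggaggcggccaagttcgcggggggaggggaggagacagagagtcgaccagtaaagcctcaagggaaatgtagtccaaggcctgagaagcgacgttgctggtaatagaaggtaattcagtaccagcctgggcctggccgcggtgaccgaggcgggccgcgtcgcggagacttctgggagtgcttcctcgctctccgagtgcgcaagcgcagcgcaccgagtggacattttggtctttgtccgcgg
ZNF497 (chr19:58362702-58363001, minus strand): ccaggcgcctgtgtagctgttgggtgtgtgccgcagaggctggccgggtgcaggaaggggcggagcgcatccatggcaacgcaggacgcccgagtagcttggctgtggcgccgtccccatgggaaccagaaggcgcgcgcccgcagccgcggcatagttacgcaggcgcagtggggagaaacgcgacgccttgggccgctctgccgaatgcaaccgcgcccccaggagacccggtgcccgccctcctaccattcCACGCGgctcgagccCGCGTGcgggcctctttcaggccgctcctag
ZNF566 (chr19:36489386-36489685, minus strand): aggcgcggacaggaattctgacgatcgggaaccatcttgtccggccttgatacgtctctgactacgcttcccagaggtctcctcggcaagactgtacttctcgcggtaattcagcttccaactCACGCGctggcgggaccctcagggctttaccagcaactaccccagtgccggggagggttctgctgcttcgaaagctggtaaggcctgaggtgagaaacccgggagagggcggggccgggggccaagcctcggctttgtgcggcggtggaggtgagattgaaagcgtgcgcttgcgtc

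ZNF507 holds 1 CACGTG, at position 250 of its window, which covers the start itself, and its summit lay 219 bp downstream of the start. ZNF667 and ZNF497 hold 2 CACGCG matches each and ZNF566 holds 1, with summits 63 bp upstream, 117 bp downstream and 150 bp downstream. ZNF628 and ZNF146 hold neither hexamer in these windows, and their summits lay 394 bp upstream and 85 bp downstream. The ZNF667 summit lies inside its printed window, and the summits of the other 5 genes lie outside theirs. Over all ZNF starts, CACGTG occurred in 2 of the 21 starts with a WT summit within 1 kb (9.52%, Wilson 95% interval 2.65 to 28.9%) and in 9 of the 240 starts without one (3.75%, 1.99 to 6.97%). At other chromosome 19 starts it occurred in 15.2% of those with a summit and 7.13% of those without. CACGCG occurred in 6 of 21 ZNF starts with a summit (28.6%, 13.8 to 50%) and in 13.8% of those without, against 35.2% and 12.4% at other chromosome 19 starts. In all 35097 listed windows of the genome CACGTG occurred in 7.25% and CACGCG in 11.4%. A match describes the letters in the window and is not a measured site.

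The 15 bound genes had peaks of ordinary fold, with lower medians of −log10 q, width and pileup than the whole WT list. The authors' fold enrichment, the ratio of immunoprecipitation pileup to local background at the summit, ranged from 3.93 to 10.5 with a median of 5.66 (quartiles 4.68 to 6.60). The strongest peaks of bound other genes of chromosome 19 had a median of 5.97 (4.73 to 7.73, 123 peaks), and the whole WT list had 5.14. The median −log10 q was 18.7 (14.9 to 31.5) at ZNF genes and 26.2 (16 to 44.3) at the other genes, and the median width was 632 bp (563 to 864) and 803 bp (644 to 1070.5). These quartile ranges overlap. The number of fragments piled up at the summit, recovered from the authors' fold and p, had a median of 53 at ZNF genes and 67 at the other genes, over local backgrounds with medians of 9.67 and 9.88. For the whole WT list the medians were 24.5 for −log10 q, 790 bp for width, 72 for pileup and 13 for local background.

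**Figure D2:**
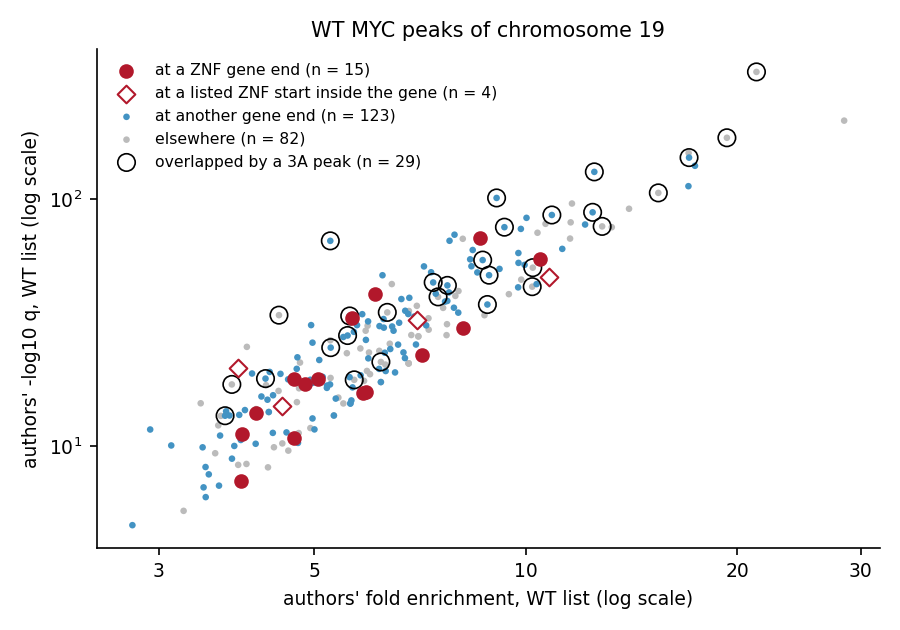
The 224 WT peaks of chromosome 19 by the authors' fold enrichment (horizontal axis, log scale) and −log10 q (vertical axis, log scale), with the 15 peaks at ZNF gene ends, 4 at listed ZNF starts inside a gene, 123 at other gene ends and 82 elsewhere. The ZNF peaks lie within the cloud of the others and reach a fold of 10.8, and none is among the 29 peaks circled as overlapped by a 3A peak.

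Among the bound genes outside the clusters, ZNF507, a gene linked to neurodevelopmental disorders, had the highest pileup, with 124 fragments (Poisson 95% interval 103 to 148) over a background of 13.5. Its fold was 8.60 and its −log10 q 69.2, at chr19:32345529-32346180, and 12.1% of all WT peaks had a higher fold. ZNF473 encodes ZFP100, a factor in the 3′ processing of histone mRNAs. The peak there, with a fold of 4.13, held 49 fragments (36.3 to 64.8) over 11.1 and its summit was 79 bp from the gene end and also within 1 kb of the kinase gene VRK3. ZNF473 was the 1 bound gene of the 15 whose summit was also within 1 kb of another protein-coding gene's end.

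ZNF653, a corepressor of the nuclear receptor SF-1, had the highest fold of the 15, 10.5, with 88 fragments (70.6 to 108) over 7.48 at chr19:11482316-11482898. This summit lay 741 bp beyond the 3′ end of ZNF653, 23151 bp from its listed start and 1642 bp from the neighbouring ELAVL3, so the either-end rule assigned it to ZNF653 through its 3′ end. ZNF580 was likewise called through its 3′ end, 241 bp from a summit with a fold of 5.92 that lay 62 bp from the listed start of ZNF581. Of the other bound genes, 12 had the summit within 1 kb of the 5′ end, and ZNF473 had no listed start. Among the 12, ZNF569 had its listed start 1609 bp from the summit, which lay 303 bp from a listed start of ZNF570.

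ZNF628 had a fold of 8.14 with 54 fragments (40.6 to 70.5) over a background of 5.75. ZNF667, known in rat as Mipu1, a gene induced in the ischaemic heart, had 7.11 with 47 fragments (34.5 to 62.5) over 5.75, and its summit was also within 1 kb of the long non-coding gene ZNF667-AS1. ZNF146, also called OZF, a protein made almost wholly of zinc fingers that is overexpressed in pancreatic tumours, had 6.10 with 98 fragments (79.6 to 119) over 15.2. These peaks lay above the median fold of the WT list.

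The remaining bound genes had folds below 6. ZNF497 had 5.87, ZNF566 5.66, ZNF57 5.06, ZNF561 4.84, ZNF121 4.68, ZNF837 4.67, ZNF614 3.95 and ZNF569 3.93. The summits of ZNF497, ZNF561 and ZNF566 were, like that of ZNF667, also within 1 kb of a long non-coding gene. ZNF569 had the fewest fragments, 28 (18.6 to 40.5) over 6.37, and was the 1 gene of the 15 with a −log10 q under 10, at 7.22. In all, 8 of the 15 peaks had a fold above the median of the WT list, and 11 of the 15 summits lay within 300 bp of the gene end.

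The local background at the 15 genes ranged from 5.75 at ZNF580, ZNF628 and ZNF667, the lowest value anywhere in the WT list, to 15.2 at ZNF146. The value 5.75 was also the minimum among the strongest peaks of bound other genes of chromosome 19. In the cluster from ZNF565 to ZNF573 the local background was 14 at ZNF566 and 6.37 at ZNF569.

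**Figure D3:**
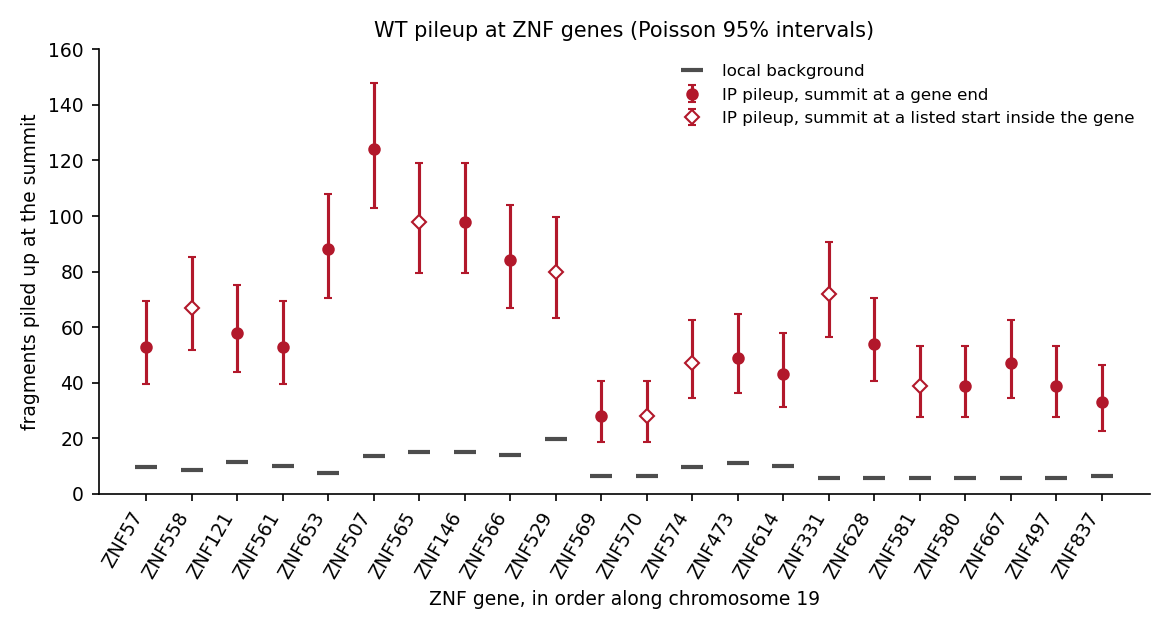
Fragments piled up at the WT summit (vertical axis) for the 22 ZNF genes with a summit at a gene end (filled circles, 15 genes) or only at a listed start inside the gene (open diamonds, 7 genes), in order along chromosome 19, with Poisson 95% intervals, and the local background (short horizontal lines). The pileups run from 28 at ZNF569 and ZNF570, which share a peak, to 124 at ZNF507, and every lower limit lies above the background.

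Starts inside the gene span added further genes. Any listed start, in place of either end, gave WT summits at 18 of 210 ZNF genes (8.57%, Wilson 95% interval 5.49 to 13.1%), against 133 of 975 other genes of chromosome 19 (13.6%, 11.6 to 15.9%) and 18.8% of all protein-coding genes with a listed start. Here the intervals overlap. The 3A list gave 0 of 210 ZNF genes and 23 of 975 other genes (2.36%), against a background of 3.87%, and 7A gave 0 of 210 and 1 of 975 (0.103%), against 0.126%. Of the 18 genes, 7 were not called by the either-end rule. ZNF331, an imprinted gene rearranged in thyroid adenomas, had the highest fold of any ZNF peak here, 10.8, with 72 fragments (56.3 to 90.7) over 5.76. Its summit lay 504 bp from the nearest of its 6 listed starts and 34576 bp from the nearer end of the gene. ZNF558, a KRAB gene known to repress SPATA18 in human neural progenitors, had 7.01, and the summit was 183 bp away from one of its listed starts and 110 bp from an end of MBD3L1. ZNF574 had 4.50 and ZNF529 3.89, with summits 436 and 86 bp from a listed start.

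The other 3 shared a peak with a neighbouring ZNF gene. ZNF565 and ZNF146 have starts on opposite strands, 107 and 85 bp from a shared summit, ZNF570 and ZNF569 share the peak with a fold of 3.93, and ZNF581 and ZNF580 that with 5.92. The 22 genes called by either rule therefore rest on 19 peaks. Of the 18 genes with a summit near a listed start, 10 had it downstream and 8 upstream, and 14 had it within 300 bp (77.8%), against 70.7% of the 133 other genes of chromosome 19.

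The genes nearest the 1 kb limit were ZNF628, ZNF146, ZNF667 and ZNF653 inside it, at 394, 468, 685 and 741 bp. Just outside were ZNF570 at 1281 bp, ZNF581 at 1912 bp, ZNF296 at 2738 bp and ZNF432 at 2967 bp. ZNF296, whose mouse counterpart takes part in reprogramming to pluripotency, lay near a peak with a fold of 17.1 and a −log10 q of 153, at chr19:45078829-45079612. No annotated gene end lay within 1 kb of that summit, but a listed start of GEMIN7, a gene of the SMN complex, lay 21 bp from it. Inside ZNF gene spans, 16 WT summits were found, 11 within 1 kb of a ZNF gene end and 4 more near a listed start. The last lay in ZNF536, a neuronal zinc finger gene, 166673 bp from the nearer end, with a fold of 4.01. No 3A and no 7A summit lay inside any ZNF gene span.

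Between clusters the counts were uneven, though small. ZNF genes whose spans lie at most 500 kb apart were chained, and chains of at least 5 genes were called clusters, named here by their first and last gene. This gave 10 clusters with 228 genes and left 12 genes outside them. WT bound 13 of 228 clustered genes (5.70%, Wilson 95% interval 3.36 to 9.51%) and 2 of the 12 others (16.7%, 4.70 to 44.8%). The cluster from ZNF101 to ZNF254 stood empty, with 0 of 37 genes bound, which allows a share of up to 8.11% by the limit of 3 counts, and no WT, 3A or 7A summit in its whole span of 4.46 Mb. It holds ZNF91 and ZNF93, named here for their known repression of SVA and L1 retrotransposons rather than by rule, and their nearest WT summits were 3899558 and 495500 bp away. The cluster from ZNF575 to ZNF180 had 0 of 23 and the small cluster from ZNF302 to ZNF792 had 0 of 5.

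The cluster from ZNF628 to ZNF835 had 3 of 16 bound genes (18.8%, 6.59 to 43.0%), ZNF628, ZNF580 and ZNF667. The cluster from ZNF565 to ZNF573 had 3 of 24 (12.5%, 4.34 to 31.0%), ZNF146, ZNF566 and ZNF569, and 6 of 24 once listed starts were added. The cluster from ZNF414 to ZNF846 had 2 of 13, ZNF121 and ZNF561, and the cluster from ZNF554 to ZNF77 had 1 of 5, ZNF57. The largest clusters, from ZNF264 to ZNF446 and from ZNF175 to ZNF331, had 2 of 41 (ZNF497 and ZNF837) and 1 of 39 (ZNF614), and the cluster from ZNF653 to ZNF791 had 1 of 25, ZNF653. The intervals of the 10 clusters all overlap one another, and the Wilson upper limit of the empty cluster, 9.41%, lies below the 16.7% background. The upper limits of the clusters from ZNF175 to ZNF331 (13.2%), ZNF575 to ZNF180 (14.3%) and ZNF264 to ZNF446 (16.1%) lie below it too. They lie above the 12.7% of the other genes of chromosome 19, and the limit of the empty cluster lies below that share. ZNF274, which brings SETDB1 to the 3′ exons of other zinc finger genes and is named for that role, lies in the ZNF264 to ZNF446 cluster, 149072 bp from the nearest WT summit. Without the empty cluster the WT count was 15 of 203 (7.39%, 4.53 to 11.8%).

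**Figure D4:**
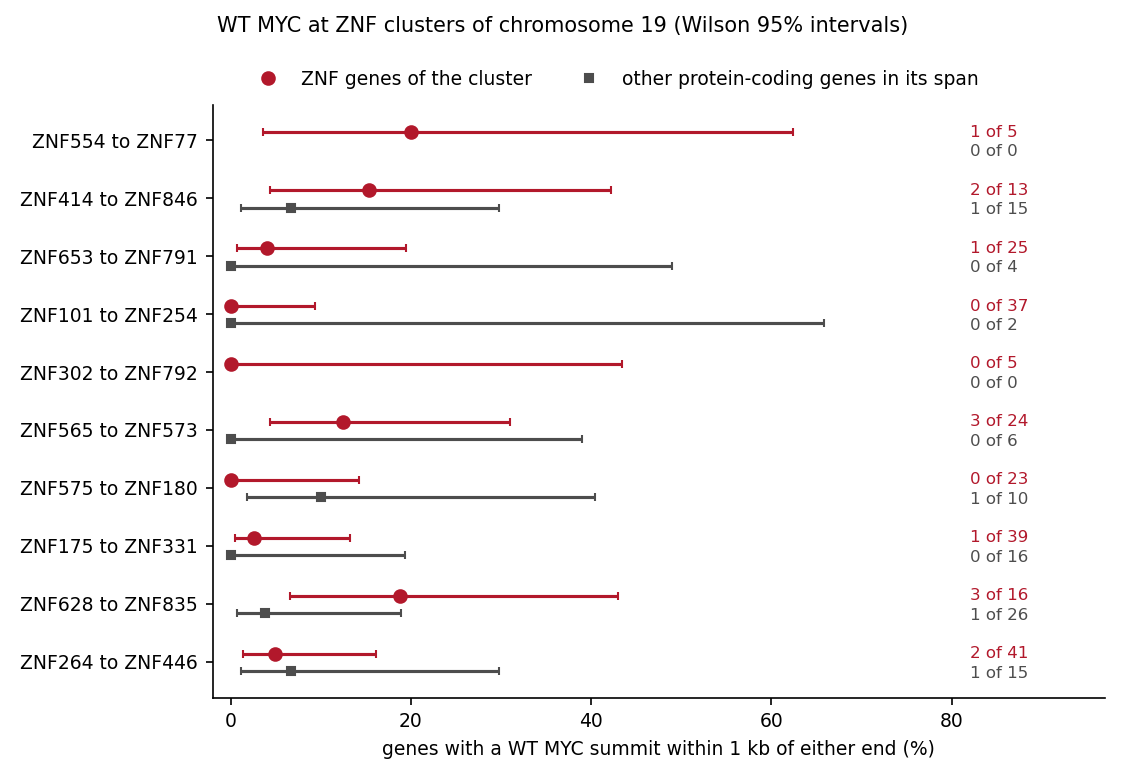
Share of genes with a WT summit within 1 kb of either end (horizontal axis, %) for the ZNF genes of each cluster (circles) and the other protein-coding genes inside its span (squares), with Wilson 95% intervals and counts, from the short-arm end at the top to the long-arm end at the bottom. The shares run from 0 of 37 in the ZNF101 to ZNF254 cluster to 1 of 5 in the ZNF554 to ZNF77 cluster, and the ZNF intervals overlap.

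Other genes inside the same spans were bound about as seldom. Of the 94 other protein-coding genes within the cluster spans, WT bound 4 (4.26%, Wilson 95% interval 1.67 to 10.4%), among them MBD3L1, SMG9 and the splicing factor gene U2AF2. Outside the spans WT bound 150 of 1117 (13.4%, 11.6 to 15.6%). The 94 include ZNF symbols with a letter after the digits. The cluster spans together held 22 WT summits in 14.4 Mb, or 1.53 per Mb (Poisson 95% interval 0.959 to 2.32), against 202 in the other 44.2 Mb between the first and last gene of the chromosome, or 4.57 per Mb (3.96 to 5.25). For 3A the densities were 0.0696 per Mb (0.00176 to 0.388), from 1 peak, and 0.679 per Mb (0.458 to 0.969), from 30 peaks, and neither the WT nor the 3A intervals overlap. The empty ZNF101 to ZNF254 cluster makes up 4.46 of the 14.4 Mb, and densities without it were not computed. The 1 3A peak in a cluster span lay 9949 bp from the mucin gene MUC16 and 64697 bp from the nearest ZNF gene, ZNF317, with a 3A fold of 5.55, and overlapped a WT peak. For 7A there were 0 peaks in the cluster spans and 3 outside.

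The CpG content of the starts was compared next, since unmethylated CpG-rich starts are where MYC is usually found. ZNF starts were not poor in CpG. Their median ratio of observed to expected CpG was 0.765 (quartiles 0.606 to 0.876) against 0.711 (0.360 to 0.891) for other chromosome 19 starts, and their median GC content was 60.3% against 64.3%. A start was called CpG-rich at a ratio of at least 0.6 and a GC content of at least 50%, which held for 74.7% of ZNF starts and 58.2% of the others. Among genes with a CpG-rich start, WT bound 14 of 165 ZNF genes at an end (8.48%, Wilson 95% interval 5.12 to 13.7%), against 126 of 620 other genes of the chromosome (20.3%, 17.3 to 23.7%) and 39 of 162 ZNF genes of other chromosomes (24.1%, 18.1 to 31.2%). The first interval overlaps neither of the others. For 3A at an end the counts were 0 of 165 ZNF genes (0 to 2.28%) and 18 of 620 other genes (2.90%, 1.84 to 4.54%), which overlap. By any listed start they were 0 of 165 (0 to 2.28%) and 22 of 620 (3.55%, 2.35 to 5.31%), which do not. Inside the cluster spans the shares were 13 of 155 for ZNF genes (8.39%, 4.97 to 13.8%) and 3 of 34 for other genes (8.82%, 3.05 to 23.0%).

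The bound ZNF starts were among the richer ones. The 21 ZNF starts with a WT summit had a median CpG ratio of 0.859 (0.797 to 0.941), against 0.751 (0.594 to 0.869) for the 240 without, and 20 of the 21 were CpG-rich against 72.9% of the 240. The exception was a start of ZNF331. In the cluster from ZNF101 to ZNF254 only 4 of the 29 genes with a listed start had a CpG-rich one (13.8%), and in the cluster from ZNF653 to ZNF791 13 of 24 (54.2%), while in the other 8 clusters the share was 78.9% or more. All 32 listed genes of the cluster from ZNF175 to ZNF331 had a CpG-rich start, and 1 of its 39 genes was bound at an end. The part of CpG content in the uneven counts was not tested.

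**Figure D5:**
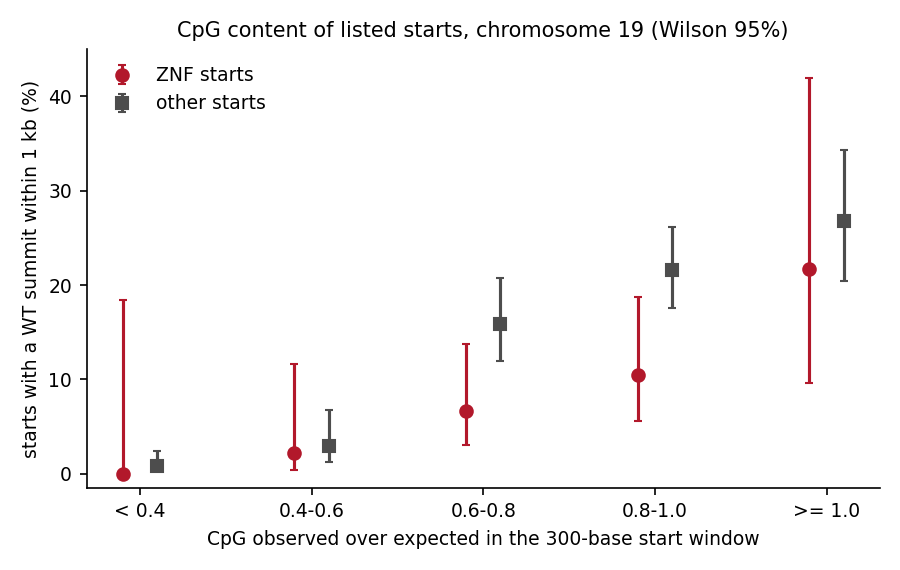
Share of listed starts of chromosome 19 with a WT summit within 1 kb (vertical axis, %) by the ratio of observed to expected CpG in the start window (horizontal axis), for ZNF starts (circles) and other protein-coding starts (squares), with Wilson 95% intervals. At ratios of 0.8 to 1.0 the shares were 10.5% for ZNF starts and 21.6% for the others, and in every range the ZNF value was the lower one, with overlapping intervals.

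At the WT-bound genes the mutants left no peak. The 3A list had a summit at 0 of the 15 WT-bound ZNF genes (0 to 20.4%), at 21 of the 154 WT-bound other genes of chromosome 19 (13.6%, 9.10 to 19.9%) and at 18.8% of all WT-bound genes. The interval for the ZNF genes includes the share of the others, so a difference was not detectable with 15 genes. None of the 19 WT peaks at ZNF ends or starts overlapped a 3A or a 7A peak. From the WT summits at ends, the nearest 3A summit was 38763 bp away at ZNF473, 100187 bp at ZNF146 and 8393517 bp at ZNF837.

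The machinery that KRAB zinc finger proteins recruit was examined beside the ZNF genes. Of 23 genes on a list of TRIM28, SETDB1, HP1, histone deacetylase, DNA methylation, ATRX, SUMO and HUSH components, 3A bound 3 at an end (13%, Wilson 95% interval 4.54 to 32.1%, background 3.50%), 7A bound 0 and WT bound 8 (34.8%, 18.8 to 55.1%, background 16.7%). By listed starts 3A bound 2 (8.70%, 2.42 to 26.8%, background 3.87%) and WT bound 7 (30.4%, 15.6 to 50.9%, background 18.8%), and both of these intervals include the background. Among all protein-coding genes with a CpG-rich start, 3A bound 5.19% and WT 24.3% at an end. The intervals of the 23 genes at an end include these shares. CBX3, which encodes HP1 gamma, had a fold of 3.16 in the 3A list and 13.9 in the WT list. SETDB1 had 2.80 in the 3A list and 3.05 in the WT list. Folds are relative to each list's own background and do not compare levels between proteins. WT but neither mutant was found at HDAC2 (9.50), CBX5, the HP1 alpha gene (6.24), SMARCAD1 (5.13), MORC2 (4.22) and DNMT1 (3.98). TRIM28, which lies on chromosome 19 beyond the last cluster, was not bound, and its nearest WT summit was 157272 bp away.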

How the data were processed

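FLAG-tagged MYC was profiled in 10 libraries of 6 groups, and 3 deposited peak lists were used, 1 per induced protein. Per the submitters' processing notes, cutadapt, Bowtie2, SAMtools, Picard and MACS2 were used, with the builds hg19, mm10 and hg38, without versions or roles. How the libraries, control, mouse reads and reads matching several gene copies were treated is not given in the sources used here. The authors deposited for each peak a fold enrichment (a ratio), a −log10 p-value and q-value, and a score derived from the −log10 q that was not used further. As a check of the build, 60.1% of WT summits fell within 1 kb of a GRCh38.p14 protein-coding gene end, and moving all summits by 100 or 500 kb left 4.59 to 5.96%.

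The summit is the peak start plus the summit offset. Pileup and background were recovered from the fold, taken as (pileup + 1)/(background + 1), and the Poisson p, and the p-value at a whole pileup lay within 0.02 of the step for 1 fragment for all peaks of the 3A and WT lists and for 63 of the 64 in the 7A list. Calls and recovery were tested on simulated data. Shares have Wilson 95% intervals, counts have exact Poisson intervals, and both cover counting error only. Read totals were not used, and fragments are not independent molecules. No spike-in scaling was applied to the deposited values here. No p-value was computed, since each protein has 1 list.

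The genes and lists were chosen with earlier results of these data known. Every gene with a WT summit at an end is named, as are the 4 genes on either side of the 1 kb limit, the strongest gene of each cluster and bound cofactors, except that some genes counted are not reported here by name. Genes called only through a listed start were added after their values were seen. Printed promoters were limited to genes with the summit at the 5′ end. Protein features were not analysed here. Alternatives covered the window, the −log10 q, the start rule, the symbol rule, shared summits, the cluster gap and the overlap rule. The software was matplotlib 3.10.9, pandas 2.3.3, scipy 1.17.1 and numpy 2.4.6 under Python 3.11.15.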

Additional observations from a re-analysis of the deposited data

How the results depend on the processing

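The counts of bound ZNF genes stayed within 1.5 times of the reported value under all alternatives run. They were 0 for 3A and 7A under each. For WT they were 13 with a window of 500 bp, 20 with 5 kb, 15 at a −log10 q of at least 5, 14 at a −log10 q of at least 10, 18 by listed starts, 15 of 250 with all symbols starting with ZNF and digits, and 15 by distinct summits. Under alternatives chosen after the data were seen they were 22 by either end or a listed start, 14 with a CpG-rich start and 15 of 203 without the cluster from ZNF101 to ZNF254. For the other chromosome 19 genes WT gave 125 to 227. The WT intervals of ZNF and other chromosome 19 genes overlapped with a window of 500 bp (3.19 to 9.05% against 8.81 to 12.3%). They also overlapped by distinct summits (3.82 to 10.1% against 8.73 to 12.2%). The same held for listed starts, for either end or a listed start, and without the ZNF101 to ZNF254 cluster. They stayed apart with 5 kb, at both −log10 q limits and with a CpG-rich start. Leaving out the other genes of doubtful position, such as KIR2DL2, was not run, and it could part intervals that overlap narrowly here. With cluster gaps of 250 kb and 1 Mb, 13 of 222 and 13 of 231 clustered genes were bound. In the cluster from ZNF175 to ZNF331 the WT count was 2 with a window of 5 kb and 1 with 1 kb. Overlap with 3A was 0 by shared bases and by summits within 100 bp. No paired analysis was possible because each protein has 1 peak list with no columns per replicate, and for the same reason leaving out a replicate was not run. The lists give no read totals, which limits every count of 0 to what a peak caller could detect.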
